A study of Mus musculus with 3 samples.

Results

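The 9 genes Foxp3, Ikzf2, Ikzf4, Areg, Il1rl1, Izumo1r, Klrg1, Entpd1 and Nt5e were followed through immune cells of inflamed mouse nerve. They were taken by name as 9 of the 32285 gene rows of each count matrix. The data were single-cell RNA counts of immune cells, sorted as CD45+ from the sciatic nerve of NOD.AireGW/+ mice with neuropathy. These mice carry 1 copy of a partial loss-of-function allele (GW) of Aire, a gene that lets the thymus delete self-reactive T cells, on the autoimmunity-prone NOD background, and they develop spontaneous autoimmune inflammation of peripheral nerve. All 3 libraries belonged to 1 group. A single mouse gave each of libraries 1 and 2, and 2 mice were pooled for library 3. The age of the mice was not given in the labels. No control group was analysed here, so all comparisons are between cell types of the same nerves and no effect of disease was tested.

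Regulatory T cells are CD4+ T cells that restrain immune responses, and the transcription factor Foxp3 is needed for their fate. Those that live in injured muscle, lung, skin and fat are known for a repair program, in which the alarmin IL-33, released by damaged cells, acts through its receptor ST2 (the product of Il1rl1) and the cells secrete amphiregulin (Areg), a growth factor that stimulates epithelial and progenitor cells through the EGF receptor. Izumo1r encodes folate receptor 4 and Klrg1 an inhibitory receptor for cadherins on mature effector lymphocytes. Entpd1 and Nt5e encode CD39 and CD73, the ectoenzymes that turn extracellular ATP stepwise into immunosuppressive adenosine.

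Cells were assigned by counting transcripts of marker genes. A UMI, or unique molecular identifier, counts 1 captured transcript. Foxp3 cells were T cells in which a Foxp3 and a Cd4 transcript were both captured and neither Cd8 chain (Cd8a, Cd8b1) was. CD4 cells met the same conditions but had no Foxp3 UMI. Of 13637 cells kept, 469 were Foxp3 cells, 246, 198 and 25 of them in libraries 1 to 3. The comparison cells were 1571 CD4, 1682 CD8, 215 natural killer (NK), 145 gamma delta T and 2473 myeloid cells. A further 477 B cells gave the background of genes that B cells should lack. Foxp3 cells made up 29.1% (exact 95% interval 26.1 to 32.3), 20.0% (17.5 to 22.6) and 12.3% (8.09 to 17.6) of Foxp3 plus CD4 cells in libraries 1 to 3, where the median Foxp3 cell had 3846.5, 3561.5 and 2367 UMIs and the median CD4 cell 2985, 2535 and 1760. Once every cell was thinned to 1000 UMIs before gating, the mean share was 9.92% ± 5.62 in place of 20.4% ± 8.44 (SD, n = 3 libraries). A missing UMI is therefore no proof that a cell lacked a gene, and the CD4 cells may hold regulatory T cells without a captured Foxp3 transcript.

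The libraries held 3926, 8311 and 1533 cells and 22983991, 55120460 and 3399733 UMIs. Libraries 1 and 2 shared 36 cell barcodes, libraries 1 and 3 shared 7, and libraries 2 and 3 shared 14. Library 2 held most of the myeloid cells, 2332 of 2473. The Foxp3 cells held surface genes of regulatory T cells by which they were not chosen, with Ctla4 at 1755 to 2340 CPM (UMI counts scaled to a library size of 1e6) and Tnfrsf18 at 674 to 1269 CPM across libraries. CD4 cells held them too, at 939 to 1683 CPM and 434 to 777 CPM, and neither gene was called between the 2 types. The B cell genes Pax5 and Ebf1 and the blood genes Hba-a1 and Hbb-bs had no UMI in them, whereas the B cell and myeloid gene Cd74 was at 135 to 1667 CPM, highest in library 2. The summed level of 4 myeloid markers (Spi1, Cd68, Itgam and Ctss, most of it Ctss) was 311 to 356 CPM in Foxp3 and 175 to 250 CPM in CD4 cells. That of 4 B cell markers (Cd74, Pax5, Cd22 and Ebf1) was 135 to 1670 against 492 to 981 CPM, and that of 4 NK markers (Klrd1, Klre1, Gzma and Eomes) 0 to 67.0 against 37.1 to 202 CPM. For 3 CD8 cell markers (Nkg7, Gzmk and Ccl5) the sum was 2038 to 3252 CPM in Foxp3 and 3103 to 3967 CPM in CD4 cells. Of these, Nkg7 was higher and Gzmk and Ccl5 were lower in Foxp3 cells in every library. The part of RNA from other cells in the differences between Foxp3 and CD4 cells was not tested. Cells with T cell transcripts and B cell or myeloid genes together were kept out of every T cell type.

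Where the 9 genes lie was read from the mm10 build (GRCm38), and 6 of them had an entry among the RefSeq promoter windows of that build, which gave 9 windows of 250 bases before a start site. They were Foxp3, Areg, Il1rl1, Izumo1r, Entpd1 and Nt5e. The windows were searched on both strands for the cAMP response element TGACGTCA, the AP-1 site TGANTCA, the forkhead site TGTTTAC, the TATA box TATAAA and the NFAT core TGGAAA. Of 32817 windows of 26994 genes, 1.55% held the cAMP response element, 6.75% the AP-1 site, 3.16% the forkhead site, 12.4% the TATA box and 18.6% the NFAT core. The windows of the repair ligand and of its upstream receptor are printed, since they frame the Areg and Il1rl1 values given below and differ in these motifs. They run 5′ to 3′ on the plus strand, at chr5:91139349-91139598 for Areg and chr1:40429320-40429569 for the first start of Il1rl1, and capitals mark a motif.
Areg: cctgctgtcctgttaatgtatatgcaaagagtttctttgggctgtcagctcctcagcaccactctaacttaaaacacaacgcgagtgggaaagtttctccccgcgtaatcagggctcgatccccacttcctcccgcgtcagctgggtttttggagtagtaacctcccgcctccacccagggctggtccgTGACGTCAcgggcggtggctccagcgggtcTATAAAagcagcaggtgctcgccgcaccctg
Il1rl1: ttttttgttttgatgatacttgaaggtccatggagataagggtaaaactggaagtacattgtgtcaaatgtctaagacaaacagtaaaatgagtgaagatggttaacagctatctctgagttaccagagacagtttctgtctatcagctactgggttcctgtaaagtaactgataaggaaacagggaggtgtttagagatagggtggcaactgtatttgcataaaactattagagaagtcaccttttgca
In Areg, the cAMP response element began 61 bases and the TATA box 31 bases before the start. The Il1rl1 window held none of the 5 motifs, which says only that these letters were not in it. A second Il1rl1 window held a forkhead site beginning 117 bases before its start, the first Foxp3 window a TATA box at 32 bases, the second Foxp3 window an NFAT core at 140 bases and the Izumo1r window an NFAT core at 197 bases. None of the motifs was in the windows of Entpd1 or Nt5e. Some start sites were internal: the windows of Foxp3 and Nt5e and the second of Il1rl1 and of Entpd1 lay inside the gene spans given below. Annotated exons of the same gene overlapped the first Foxp3, the second Il1rl1, the Izumo1r and the Nt5e window.

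UMIs were summed per cell type and library, which gave 20 sums of at least 10 cells, and all sums were tested in 1 model with library as a block (edgeR's quasi-likelihood test, Benjamini-Hochberg adjustment over 8776 genes). The gamma delta T cells of library 3 numbered 9 and were left out, so that comparison rests on 2 libraries. Of the 9 genes, Il1rl1 had too few UMIs to be tested and Foxp3 chose the cells, which left 7. Against CD4 cells, 2 of these 7 (Ikzf2 and Ikzf4) were higher in Foxp3 cells at an adjusted p under 0.05, where 0.82% of all genes tested were. Against CD8 cells, 5 of 7 were higher (Ikzf2, Ikzf4, Areg, Izumo1r and Nt5e), beside 4.88% of all genes. Against gamma delta T cells, the same 5 were higher, beside 3.32%. Against NK cells, these 5 were again higher, beside 7.91%, and Klrg1 was lower, beside 7.12% of all genes that were lower. Against myeloid cells, 6 of 7 were higher, all but Entpd1, beside 18.3%. All 5 comparisons share the same Foxp3 sums. The median log2 difference over all genes tested lay between -0.06 and 0.01 in them.

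**Figure D1:**
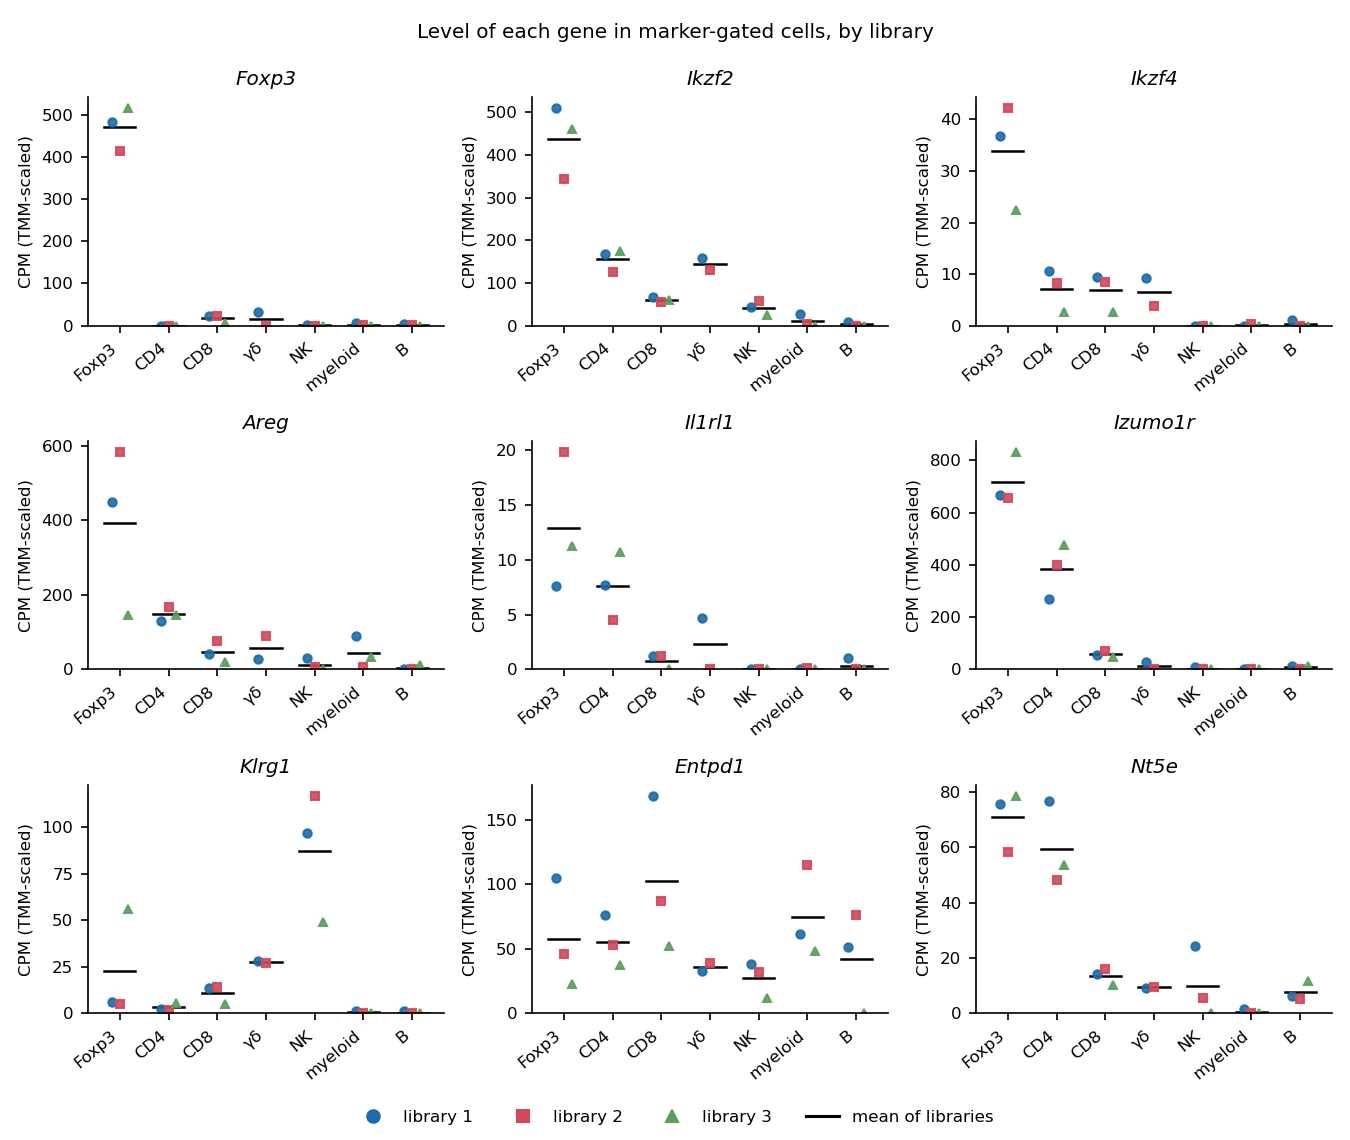
Level of each gene in TMM-scaled CPM (vertical axis, from 0) in Foxp3, CD4, CD8, gamma delta (γδ) T, NK, myeloid and B cells, 1 point per library and a line at the mean. Ikzf2, Ikzf4 and Izumo1r were higher in Foxp3 cells than in any other cell type in every library, Klrg1 was highest in NK cells in libraries 1 and 2, and Entpd1 was highest in CD8 cells of libraries 1 and 3.

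Foxp3 (ENSMUSG00000039521, chrX:7573644-7595245, plus strand) was at 485, 414 and 516 CPM in Foxp3 cells and at 0 in CD4 cells, both as a result of how the cells were chosen. It was not confined to the chosen cells. CD8 cells held 119, 78 and 2 Foxp3 UMIs in libraries 1 to 3, which is 23.6, 23.8 and 5.19 CPM, and these lay in 82 of the 1682 cells. After thinning to 1000 UMIs, 1.59% ± 0.84 of CD8 cells had a Foxp3 UMI, against 0 of the thinned B cells. The median depths were alike, with 4446.5, 3513 and 2265 UMIs in CD8 cells and 4029, 2893 and 1915 in B cells. B cells were chosen to lack Cd3 UMIs, so they cannot gauge doublets, cells captured together, with a T cell. How much of the CD8 values came from doublets was not tested. B cells held 4 Foxp3 UMIs in all, NK cells 1 and myeloid cells 14. Over all cells kept, 31.5% of the 3883 Foxp3 UMIs were in the Foxp3 cells. The CD8 cells held 5.12% of them. A further 37.1% were in T cells outside the types compared that had a Foxp3 UMI but either no Cd4 UMI or a Cd8 UMI, and 24.4% were in cells with both T cell transcripts and B cell or myeloid genes.

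Ikzf2 (ENSMUSG00000025997, chr1:69531214-69687245, minus strand) encodes Helios, an Ikaros-family transcription factor of regulatory T cells. It was at 510, 344 and 460 CPM in Foxp3 cells of libraries 1 to 3 and at 168, 126 and 174 CPM in CD4 cells, so that the groups did not overlap. The fitted log2 difference was 1.49 (SE 0.31, 95% interval 0.85 to 2.13), with an adjusted p of 0.00773. The call was lost without library 3 (1.54, adjusted p = 0.101) and with DESeq2 (1.52, adjusted p = 0.0607), with little change in size. Gamma delta T cells followed at 158 and 131 CPM, within the range of CD4 cells. CD8 cells were at 66.3, 55.3 and 59.6 CPM and NK cells at 44.3, 56.5 and 24.4 CPM, and these ranges also overlapped. Myeloid cells were at 26.1, 3.76 and 0 CPM, and B cells held 7 UMIs in all. Foxp3 cells exceeded the others by a log2 difference of 2.82 (SE 0.32, adjusted p = 2.98e-06) against CD8, 3.15 (SE 0.39, adjusted p = 4.58e-06) against NK, 5.90 (SE 0.44) against myeloid and 1.54 (SE 0.38, adjusted p = 0.0140) against gamma delta T cells. The last of these was lost without library 1 (adjusted p = 0.0565) or library 3 (adjusted p = 0.0647), with DESeq2 (adjusted p = 0.0504), with no block (adjusted p = 0.195) and when T cells with B cell or myeloid genes were kept (adjusted p = 0.0706).

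Ikzf4 (ENSMUSG00000002578, chr10:128630843-128645991, minus strand) encodes Eos, a relative of Helios that acts with Foxp3 in gene silencing. In Foxp3 cells it was at 36.8, 42.2 and 22.5 CPM, which rested on 53, 49 and 2 UMIs. CD4 cells were at 10.5, 8.33 and 2.68 CPM and CD8 cells at 9.33, 8.55 and 2.59 CPM, all below the Foxp3 cells and overlapping each other. The log2 difference between Foxp3 and CD4 cells was 2.11 (SE 0.34, 95% interval 1.40 to 2.83), with an adjusted p of 0.00109. It was lost without library 1 (2.41, adjusted p = 0.203) and without library 2 (1.90, adjusted p = 0.0667), the libraries that held nearly all of the UMIs. Against CD8 cells the difference was 2.18 (SE 0.33, adjusted p = 0.000144), lost without library 1 (adjusted p = 0.0586). Gamma delta T cells were at 9.31 and 3.87 CPM, on 4 UMIs, a difference of 2.82 (SE 0.57, adjusted p = 0.00331) that was lost without library 1 (adjusted p = 0.0847) or library 2 (adjusted p = 0.339). NK cells held 0 Ikzf4 UMIs, which makes the pooled level of Foxp3 cells at least 14.3-fold higher, taking a floor of 3 counts over the pooled NK cells. Myeloid cells held 3 UMIs, a pooled ratio of 165 with a counting interval of 55.1 to 815.

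Amphiregulin, the repair growth factor, was not called between Foxp3 and CD4 cells although it was higher in 2 of 3 libraries. Areg (ENSMUSG00000029378, chr5:91139599-91148432, plus strand) was at 449, 583 and 146 CPM in Foxp3 cells and at 130, 168 and 147 CPM in CD4 cells. Libraries 1 and 2 lay above all CD4 values, while library 3, with 13 Areg UMIs in 25 Foxp3 cells, lay among them. The log2 difference was 1.46 (SE 0.53, 95% interval 0.36 to 2.57), with an adjusted p of 0.200. Without library 2 the value was 1.26 with an adjusted p of 0.00479. When Foxp3 cells did not need a Cd4 UMI (365, 473 and 108 cells), Areg was at 485, 569 and 341 CPM and lay above the CD4 cells in every library. It was not called there. Of 14 alternative settings, 4 called Areg against CD4 cells.

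Areg was lower in the other cell types. It was at 40.9, 75.4 and 20.7 CPM in CD8 cells and at 27.9 and 88.9 CPM in gamma delta T cells. NK cells were at 30.2, 7.53 and 0 CPM, and myeloid cells at 90.6, 6.93 and 33.9 CPM. These 4 ranges overlapped one another. The log2 difference of Foxp3 cells was 3.09 (SE 0.56, adjusted p = 0.000658) against CD8, 4.74 (SE 0.79, adjusted p = 0.000158) against NK, 3.87 (SE 0.67, adjusted p = 6.26e-05) against myeloid and 2.79 (SE 0.71, adjusted p = 0.0165) against gamma delta T cells. The last was lost without library 3 (2.95, adjusted p = 0.0658), with no block (adjusted p = 0.0810) and when T cells with B cell or myeloid genes were kept (adjusted p = 0.0584).

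Areg was unevenly held among Foxp3 cells. In libraries 1 to 3, 100 of 246, 86 of 198 and 3 of 25 Foxp3 cells had an Areg UMI, which is 40.7% (exact 95% interval 34.5 to 47.1), 43.4% (36.4 to 50.6) and 12% (2.55 to 31.2). The positive cells had medians of 3, 4.5 and 3 UMIs with maxima of 47, 43 and 9. The top 10% of Foxp3 cells held 73.1%, 62.3% and 92.3% of the Areg UMIs. The same share for Ikzf2 was 31.7%, 38.2% and 26.8%. A minority of cells with many transcripts therefore carried most of the Areg signal in libraries 1 and 2, and library 3 had 1 cell with 5 or more UMIs. This was not particular to Foxp3 cells. In CD4 cells the top 10% held 87.9%, 96.9% and 100% of the Areg UMIs.

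Il1rl1 (ENSMUSG00000026069, chr1:40429570-40465415, plus strand), which encodes the IL-33 receptor ST2, was scarce in the cell types compared. Foxp3 cells held 11, 23 and 1 UMIs in 25 cells, which is 7.64, 19.8 and 11.2 CPM. CD4 cells held 19, 13 and 4 UMIs in 24 cells, which is 7.69, 4.51 and 10.7 CPM. The groups overlapped, and the pooled ratio of Foxp3 to CD4 cells was 2.07 with an interval of 1.26 to 3.39 that covers counting error only. With no filter on low counts the log2 difference was 0.99, with an adjusted p of 0.807. CD8 cells held 10 UMIs, myeloid cells 2, gamma delta T cells of libraries 1 and 2 held 1, and NK cells 0. Of all 267 Il1rl1 UMIs, 13.1% were in Foxp3 cells and 13.5% in CD4 cells.

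Izumo1r (ENSMUSG00000031933, chr9:14885814-14903949, minus strand), the folate receptor 4 gene long used to mark regulatory T cells, was at 666, 655 and 831 CPM in Foxp3 cells. CD4 cells were at 269, 401 and 476 CPM, below the Foxp3 cells in every library. The log2 difference of 0.92 (SE 0.32, 95% interval 0.25 to 1.58) was not called, with an adjusted p of 0.168. As for Areg, it was called without library 2 (1.05, adjusted p = 0.00264). Izumo1r otherwise separated CD4-lineage cells from the rest. CD8 cells were at 54.2, 70.8 and 49.3 CPM, gamma delta T cells at 27.9 and 0 CPM, and NK and myeloid cells at no more than 8.06 CPM. Foxp3 cells exceeded them by log2 differences of 3.53 (SE 0.35) against CD8, 6.27 (SE 0.66) against gamma delta T, 7.22 (SE 0.61) against NK and 8.84 (SE 0.57) against myeloid cells, with adjusted p-values of at most 1.03e-06.

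Klrg1 (ENSMUSG00000030114, chr6:122270596-122282882, minus strand) had its highest mean level, among the cell types compared, in NK cells. They were at 96.7, 117 and 48.9 CPM, and gamma delta T cells were next at 27.9 and 27.1 CPM. CD8 cells were at 13.5, 14.0 and 5.19 CPM, and CD4 cells at 2.43, 1.74 and 5.35 CPM. Foxp3 cells were at 6.25, 5.16 and 56.1 CPM, but these values rested on 9, 6 and 5 UMIs in 6, 6 and 2 cells. The library 3 value thus came from 2 of 25 cells. The log2 difference of Foxp3 cells was -3.61 (SE 0.50, adjusted p = 1.70e-05) against NK cells, lower in libraries 1 and 2 and higher in library 3. It was 1.75 (SE 0.69, 95% interval 0.31 to 3.19, adjusted p = 0.264) against CD4 cells, higher in 3 of 3 libraries. Against CD8 cells it was -0.68 (SE 0.53, 95% interval -1.78 to 0.41, adjusted p = 0.574). Against gamma delta T cells it was -1.77 (SE 0.67, adjusted p = 0.140), and there it was called without library 3 (-2.23, adjusted p = 0.0242). Against myeloid cells it was 4.67 (SE 0.89, adjusted p = 0.000175), lost without library 2 (3.09, adjusted p = 0.0652).

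The 2 ectoenzyme genes did not share a pattern. Entpd1 (ENSMUSG00000048120, chr19:40612366-40741602, plus strand), which encodes CD39, was at 105, 45.6 and 22.5 CPM in Foxp3 cells and at 76.1, 52.8 and 37.5 CPM in CD4 cells. CD8 cells were at 168, 87.3 and 51.9 CPM and myeloid cells at 61.4, 115 and 48.5 CPM. The ranges of Foxp3, CD4 and CD8 cells overlapped, while within every library CD8 cells were above Foxp3 cells. The log2 difference of Foxp3 cells was 0.14 (SE 0.34, 95% interval -0.55 to 0.84, adjusted p = 0.966) against CD4 and -0.77 (SE 0.32, 95% interval -1.43 to -0.10, adjusted p = 0.181) against CD8 cells. The latter was called with no filter on low counts (-0.79, adjusted p = 0.0227) and when only these 2 types were fitted (adjusted p = 0.0005). Gamma delta T cells were at 32.6 and 38.7 CPM and NK cells at 38.3, 32 and 12.2 CPM. Against NK cells the difference was 1.08 (SE 0.44, adjusted p = 0.117), which passed without library 2 (1.47, adjusted p = 0.0146), and against gamma delta T cells it was 0.95 (SE 0.49, adjusted p = 0.331). Against myeloid cells it was -0.45 (SE 0.34, adjusted p = 0.315), which became -1.25 (adjusted p = 0.0232) without library 1 and 0.52 (adjusted p = 0.302) without library 2. B cells, which cannot serve as background for this gene, were at 51.4, 76.0 and 0 CPM.

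Nt5e (ENSMUSG00000032420, chr9:88327197-88372092, plus strand), which encodes CD73, was at 75.7, 58.5 and 78.6 CPM in Foxp3 cells and at 76.9, 48.2 and 53.5 CPM in CD4 cells. The log2 difference of 0.16 (SE 0.24, adjusted p = 0.928) had a 95% interval of -0.34 to 0.66, which does not reach a 2-fold difference in either direction. Both cell types lay well above CD8 cells, at 14.3, 16.2 and 10.4 CPM, gamma delta T cells, at 9.31 and 9.67 CPM, and NK cells, at 24.2, 5.65 and 0 CPM. Myeloid cells held 3 UMIs in all. The log2 difference of Foxp3 cells was 2.20 (SE 0.27, adjusted p = 5.69e-06) against CD8, 2.75 (SE 0.48, adjusted p = 0.000679) against gamma delta T, 2.35 (SE 0.39, adjusted p = 0.000128) against NK and 7.58 (SE 0.48) against myeloid cells. Both ectoenzyme transcripts were found together in 46 of 469 Foxp3 cells, a mean of 6.50% over libraries, where independent detection would give 6.57%.

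**Figure D2:**
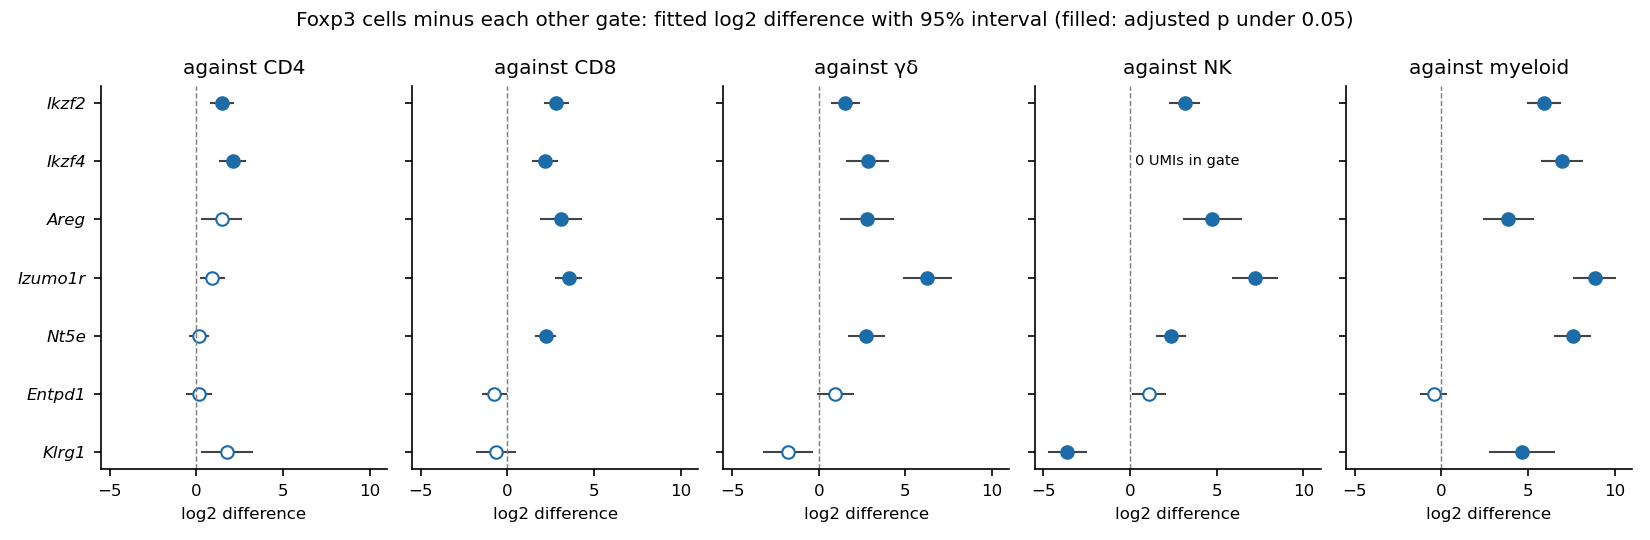
Fitted log2 difference of Foxp3 cells minus each other cell type (horizontal axis) for the 7 tested genes other than Foxp3, with 95% intervals; filled points had an adjusted p under 0.05. Ikzf2 and Ikzf4 were filled against CD4 cells, Klrg1 lay below 0 and filled against NK cells, and Entpd1 was open in all 5 panels. Ikzf4 has no point against NK cells, which held 0 UMIs.

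The share of cells with at least 1 UMI was compared after thinning every cell to 1000 UMIs, since depth differed between libraries and cell types. The intervals and shares cover counting error only where no SD is given. This left out 19 Foxp3, 138 CD4 and 13 B cells with fewer UMIs. An Izumo1r UMI was found in 51.0% ± 3.59 of Foxp3 cells (SD, n = 3 libraries), 31.1% ± 1.76 of CD4 cells and 0.709% ± 1.23 of B cells. An Ikzf2 UMI was found in 42.0% ± 5.66 of Foxp3 cells, 15.4% ± 2.76 of CD4 cells and 0.355% ± 0.61 of B cells. Both genes were thus detected in more Foxp3 than CD4 cells in each library.

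Areg was found in 21.4% ± 8.60 of thinned Foxp3 cells, against 8.03% ± 1.98 of CD4 and 1.13% ± 1.52 of B cells. Nt5e was found in 8.47% ± 0.41, 5.71% ± 1.91 and 0.631% ± 0.56 of these 3 types. For Entpd1 the shares were 7.24% ± 4.64, 6.41% ± 1.99 and 2.59% ± 2.34, so that the Foxp3 and CD4 shares differed by less than their spread. Ikzf4 was found in 4.71% ± 2.85 of Foxp3 and 1.15% ± 0.57 of CD4 cells, Il1rl1 in 3.14% ± 1.60 and 0.909% ± 0.34, and Klrg1 in 2.16% ± 1.79 and 0.0432% ± 0.07. No thinned B cell had a UMI of Ikzf4, Il1rl1 or Klrg1. Without thinning, the Foxp3 cell shares were 82.9% for Izumo1r, 70.3% for Ikzf2, 32% for Areg, 23.4% for Nt5e, 23.2% for Entpd1, 14.8% for Ikzf4, 5.01% for Il1rl1 and 4.49% for Klrg1.

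**Figure D3:**
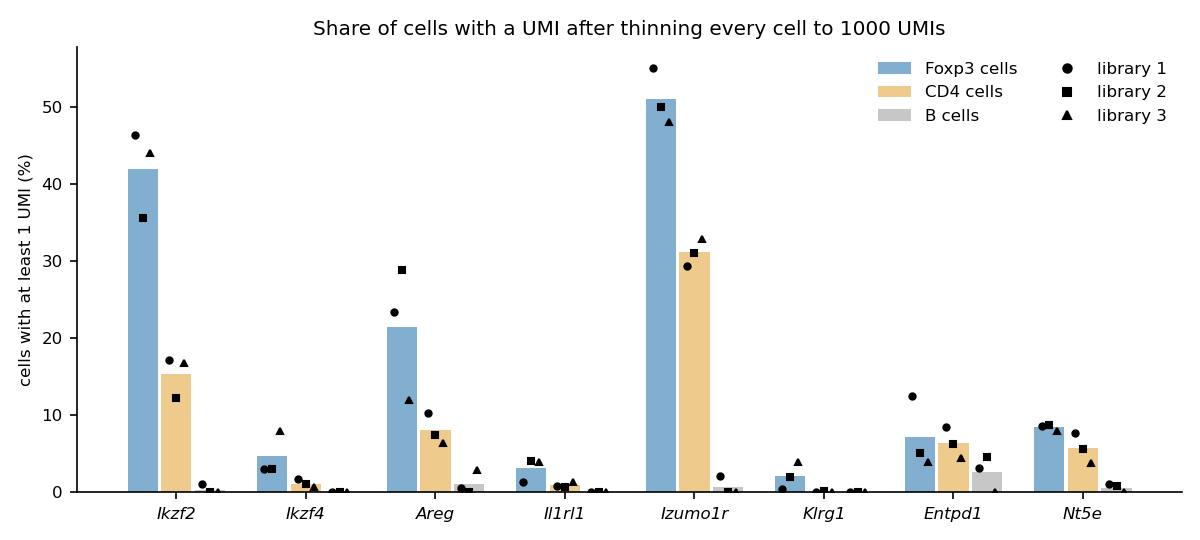
Share of cells with at least 1 UMI of each gene (vertical axis, in %) after thinning every cell to 1000 UMIs; bars are means over 3 libraries in Foxp3, CD4 and B cells and points are libraries. Ikzf2 and Izumo1r stood higher in Foxp3 than in CD4 cells in all 3 libraries, and the Areg share of Foxp3 cells was lowest in library 3.

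Most transcripts of these genes lay outside the Foxp3 cells. Of all UMIs of a gene in the 3 libraries, Foxp3 cells held 16.6% for Izumo1r, 15.9% for Ikzf2, 15.9% for Areg, 15.4% for Ikzf4, 12.2% for Nt5e, 3.51% for Entpd1 and 2.67% for Klrg1, while they were 469 of 13637 cells. The T cells outside the types compared that had a Foxp3 UMI but no Cd4 UMI or a Cd8 UMI, 660 in number, held another 24.2% of the Ikzf4, 19.4% of the Ikzf2 and 19.3% of the Areg UMIs. Cells with T cell transcripts together with B cell or myeloid genes held 27.8% of the Areg UMIs. Klrg1 UMIs lay in NK cells (15.2%), CD8 cells (15.5%) and T cells in no other type (34.6%), and Entpd1 UMIs in myeloid (24.3%) and CD8 cells (19.7%).

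**Figure D4:**
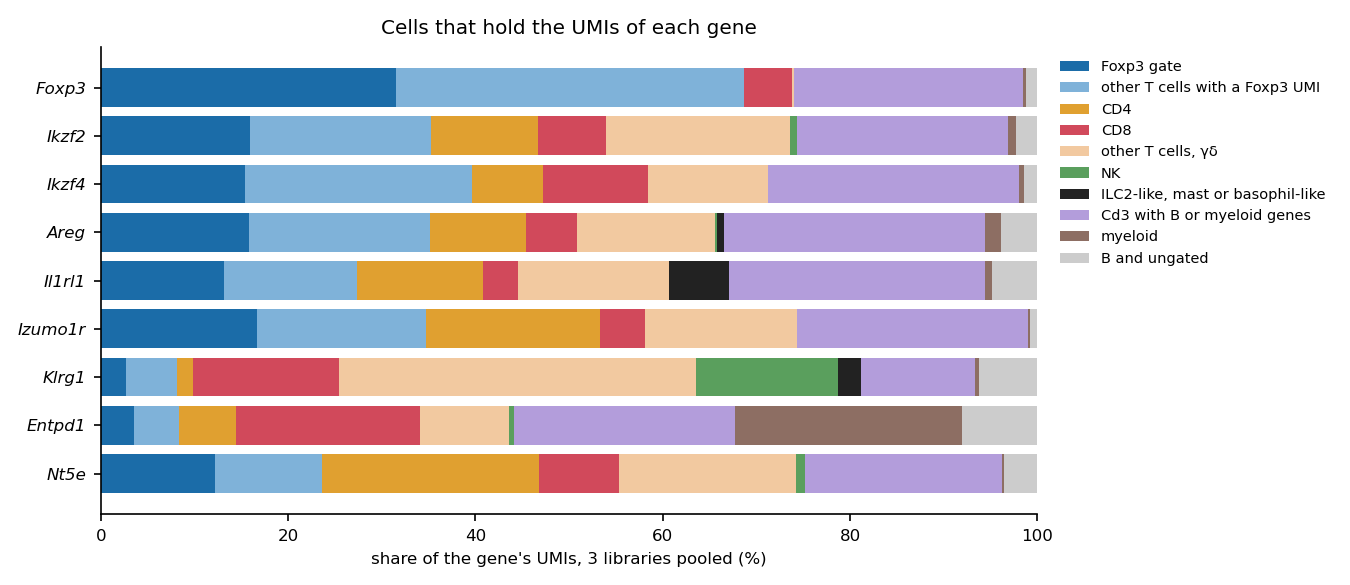
Share of each gene's UMIs (horizontal axis, in %, 3 libraries pooled) held by each kind of cell; each bar adds to the gene's whole count. Foxp3, Ikzf2, Ikzf4, Areg and Izumo1r had large segments in Foxp3 cells and in other T cells with a Foxp3 UMI, Klrg1 in NK cells, and Entpd1 in myeloid and CD8 cells.

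To ask how the genes vary among Foxp3 cells, cells with and without an Ikzf2 UMI were summed apart in each library (200 and 46, 146 and 52, 14 and 11 cells). The positive cells were deeper, with medians of 4009.5 against 2745, 4256.5 against 2226 and 3388 against 1750 UMIs, and the part of depth in what follows was not tested. Of 2848 genes tested, 21 were called, Ikzf2 itself included, which is 0.737%. Areg, Izumo1r and Nt5e were tested and were not among them. CPM of a split are scaled to the UMIs of the genes tested in it. They compare the sides of the split and are not on the scale of the levels by cell type. Areg was at 675, 771 and 23.0 CPM in Ikzf2-positive and 447, 835 and 598 CPM in Ikzf2-negative cells, a log2 difference of 0.02 (SE 0.18, adjusted p = 0.996). Izumo1r differed by -0.05 (SE 0.17) and Nt5e by -0.23 (SE 0.33). Foxp3 differed by -0.41 (SE 0.17), but every cell on both sides was chosen to hold a Foxp3 UMI. With the negative cells shallower, that condition bears on the value, so it is not read as a result. When no Cd4 UMI was needed, Areg was higher in the Ikzf2-positive cells by 0.59 (adjusted p = 0.00110).

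The genes that did pass, of which a few are named here after their values were seen, included class II antigen presentation genes. Cd74 was at 453, 2430 and 184 CPM in Ikzf2-positive and at 160, 282 and 99.6 CPM in Ikzf2-negative Foxp3 cells, a log2 difference of 2.56 (SE 0.23). H2-Aa was at 113, 1242 and 68.9 CPM against 47.9, 108 and 0 CPM, a log2 difference of 3.11 (SE 0.31). Library 2, with 28.2% myeloid cells, was highest for both. The myeloid regulator Spi1 had 13, 32 and 0 UMIs in positive and 0 in negative cells. These are raw counts, and the positive side had more and deeper cells. The part of RNA from other cells in the class II values was not tested. Stmn1 and Hmgb2, genes of dividing cells, and Lgals1 were also higher, and Ccr7 and Cd200 were lower. The count of calls was 6 without library 2 and 55 without library 3, and DESeq2 called 0 genes, with 34 at an unadjusted p under 0.05.

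A split by Areg, chosen after the data were seen, compared 100 with 146 Foxp3 cells in library 1 and 86 with 112 in library 2. Library 3 had 3 positive cells and was left out. Median depths were 4018 against 3535 and 4443.5 against 2828.5 UMIs, and again the part of depth in what follows was not tested. Of 6313 genes tested, 34 were called, Areg itself included, which is 0.539%, and 29 of them were higher in Areg-positive cells. CPM here are scaled to the UMIs of these 6313 genes and again compare only the sides of the split. Ikzf2 was at 718 and 485 CPM in Areg-positive and at 546 and 371 CPM in Areg-negative cells, a log2 difference of 0.39 (SE 0.10, adjusted p = 0.132) that was called when no Cd4 UMI was needed (0.42, adjusted p = 0.0202). Il1rl1 was at 12 and 26 CPM against 7.27 and 23.2 CPM, a difference of 0.35 (SE 0.50, adjusted p = 0.938), on 18 and 16 UMIs. Nt5e was at 88.0 and 52.0 CPM against 94.6 and 92.7 CPM, a difference of -0.40 (SE 0.25, adjusted p = 0.770). The genes that passed, named after their values were seen, included the following. Nfkbia, the inhibitor of NF-kB, was higher by 0.99 (SE 0.09) and the stress gene Gadd45b by 1.02 (SE 0.12). The receptor-response gene Nr4a1 was at 958 and 620 CPM against 531 and 358 CPM, a difference of 0.83 (SE 0.09, adjusted p = 0.000160). Of 12 genes that respond to tissue dissociation, 10 were tested and 4 were higher (Nr4a1, Junb, Jund and Dusp1), with a list median of 0.59 on the log2 scale. The other 6 were not called, with differences of 2.08 for Atf3, 0.83 for Egr1, 0.80 for Jun, 0.71 for Fosb, 0.17 for Ier2 and -0.51 for Fos. The part of the enzyme digestion in this difference was not tested. Of core regulatory T cell genes, 14 were tested and 1 was higher, Tnfrsf4 (0.40, adjusted p = 0.00440), with a list median of 0.17. Of genes of tissue or effector regulatory T cells, 18 were tested and 1 was higher, Lgals1 (0.39, adjusted p = 0.00383), with a median of 0.27. Ccl5, a chemokine of effector T cells, was lower, with a difference of -0.58 (SE 0.07), at 1546 and 1092 CPM against 2447 and 1525 CPM. Calls in this split, which rests on 2 libraries, numbered 1 with no block and 8 with DESeq2.

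A split by Klrg1 could not be made under the same conditions, since 6, 6 and 2 Foxp3 cells had a Klrg1 UMI. With no Cd4 UMI needed, libraries 1 and 2 gave 10 and 11 Klrg1-positive cells. In these, Izumo1r was lower, with a log2 difference of -1.37 (SE 0.26, adjusted p = 5.82e-05), while Ikzf2 differed by -0.48 (SE 0.26, adjusted p = 0.908) and Areg by 0.14 (SE 0.23, adjusted p = 0.999). These values rest on 21 cells of 2 libraries. The adjusted p thus leans on a spread shared over all genes more than on that between mice. Of 7484 genes tested in this split, 41 were called, Klrg1 itself included, 27 of them higher and 14 lower. The first of the 41 by name were Car2, Ccl3, Ccl4, Ccl5, Ccr7, Cd244a, Cd27, Cd3d, Cd7, Cd74, Chn2 and Ctla2a. Since no Cd4 UMI was needed, it was not tested whether all the Klrg1-positive cells were of the CD4 lineage, which Izumo1r also marks.

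Genes of the same pathways were counted from fixed lists between Foxp3 and CD4 cells. Of 16 core regulatory T cell genes, 15 were tested and 4 were higher, beside 0.82% of all genes tested, with a list median of 0.55 on the log2 scale. The study itself used Il2ra beside Foxp3 to mark these cells. Il2ra, the high-affinity IL-2 receptor chain, was at 201, 271 and 281 CPM in Foxp3 and 60.7, 66.3 and 42.8 CPM in CD4 cells (log2 difference 2.02, adjusted p = 0.000369). Tnfrsf9, the costimulatory receptor 4-1BB, was at 507, 310 and 483 CPM against 118, 37.1 and 120 CPM (2.34, adjusted p = 0.000705). Capg, an actin-capping protein, was higher by 1.29 (adjusted p = 0.000382), lost without library 1 (adjusted p = 0.0945). Gpr83, a receptor found on regulatory T cells, was at 31.3, 22.4 and 22.5 CPM in Foxp3 and 6.47, 5.55 and 2.68 CPM in CD4 cells (2.20, adjusted p = 0.00987), lost without library 1 (adjusted p = 0.571) or library 2 (adjusted p = 0.0662).

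Of 22 genes of tissue or effector regulatory T cells, 21 were tested and 2 were higher, again beside 0.82% of all genes, with a list median of 0.44. DESeq2 called 1 of them, Itgae. Itgae, the CD103 integrin chain that binds E-cadherin, was at 271, 138 and 180 CPM in Foxp3 and 48.1, 23.9 and 21.4 CPM in CD4 cells (2.57, adjusted p = 0.000124). Il1r2, a decoy receptor for IL-1, was higher by 1.63 (adjusted p = 0.0422), lost without library 1 (1.27, adjusted p = 0.391) or library 3 (1.74, adjusted p = 0.175).

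Of 7 genes of the IL-2 axis, 2 were lower, where 1.09% of all genes tested were. Il2, the cytokine that regulatory T cells consume and do not make, was at 4.86, 0.861 and 0 CPM in Foxp3 and 69.2, 27.4 and 29.4 CPM in CD4 cells (-4.01, adjusted p = 0.000857), lost without library 1 (-5.02, adjusted p = 0.0661). Bcl2, a survival gene, was at 23.6, 25.0 and 0 CPM against 109, 77.7 and 88.3 CPM (-2.06, adjusted p = 0.000705). The other lists held no call by edgeR or DESeq2. They were 3 further Ikaros genes (median -0.18), 5 adenosine genes (0.04), 4 of 6 IL-33 pathway genes (-0.07), 1 of 3 KLRG1 ligands (0.24) and 12 dissociation genes (-0.48). At an unadjusted p under 0.05, 5 of these 25 genes passed, beside 999 of all 8776. None of the 7 EGF receptor ligands and receptor had enough UMIs to be tested. Il33, the ligand of ST2, had no UMI in Foxp3 or CD4 cells.

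**Figure D5:**
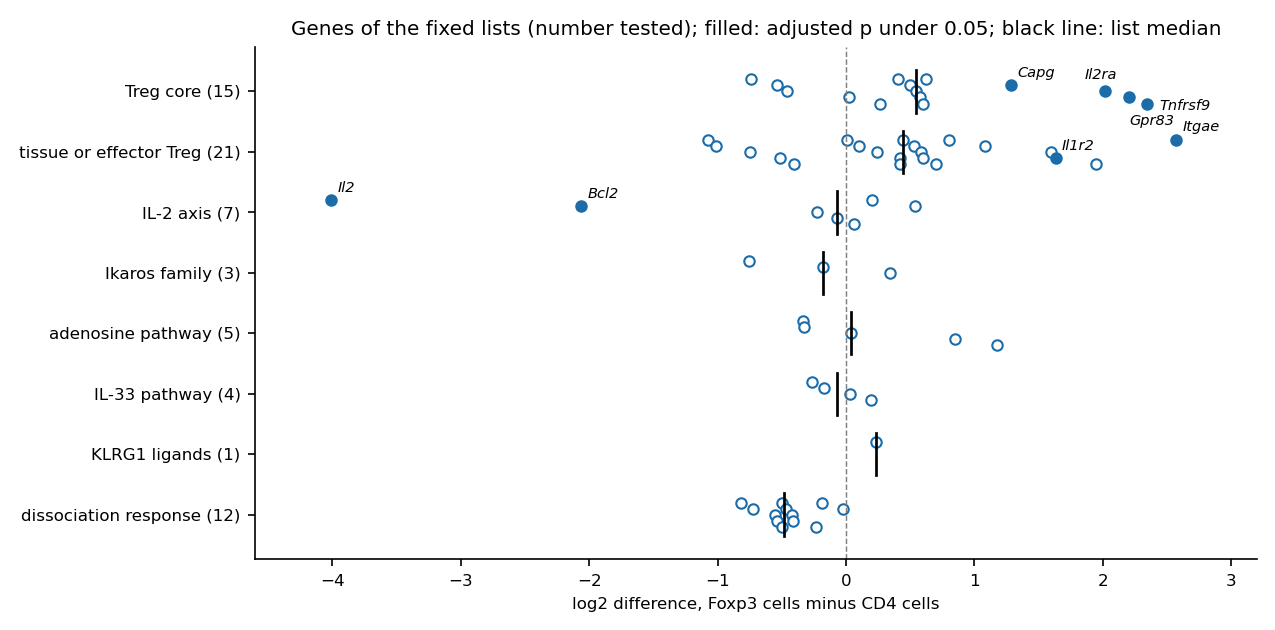
Fitted log2 difference of Foxp3 minus CD4 cells (horizontal axis) for every tested gene of 8 lists, with the number tested; filled points had an adjusted p under 0.05 and black lines are list medians. Of the Treg (regulatory T cell) lists, Il2ra, Tnfrsf9, Gpr83, Capg, Itgae and Il1r2 were filled to the right, and Il2 and Bcl2 of the IL-2 axis to the left.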

How the data were processed

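Single-cell 5′ RNA counts of sorted CD45+ nerve cells were analysed. Cell Ranger (5.0.1 for library 1 and 6.1.2 for the others, per the file headers) aligned the reads to mm10, and what the authors deposited were unnormalised UMI counts. Library 1 came with no gene list of its own and took the order of the others, with which its row totals had a Spearman correlation of 0.950 and 0.929 (0.355 and 0.324 when shifted by 1 row). The study's limits for cells were applied, each on its own: a minimum of 300 UMIs and maxima of 5000 genes and 20% mitochondrial UMIs. Doublets were kept, since Scrublet (scanpy 1.11.5) marked only 0, 0 and 8 cells. An alternative left out the 118, 545 and 19 highest scores.

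T cells needed at least 2 Cd3 UMIs, at most 1 UMI over a set of B cell genes that included Cd79a and Ms4a1, and fewer than 4 of 8 myeloid genes (Lyz2, Cst3, Csf1r, C1qa, C1qb, Fcer1g, Tyrobp, Aif1). CD8 cells had a Cd8b1 and no Cd4 UMI. Gamma delta T cells had Trdc and Tcrg constant region but no Trac, Cd4 or Cd8b1 UMIs. NK cells had Ncr1 but no Cd3d or Cd3e UMI, with the B cell limit above. Myeloid cells had at least 4 of the myeloid genes and no Cd3, Ncr1 or B cell UMI. B cells had at least 3 of 4 B cell genes, fewer than 4 myeloid genes and no Cd3 UMI.

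Sums of at least 10 cells were tested with edgeR 4.0.16 (glmQLFit, TMM, filterByExpr, library as a block, R 4.3.3) over 7 cell types, with Benjamini-Hochberg adjustment over all genes and a threshold of 0.05. The library pairs its cell types because they came from the same mice. The test was checked on simulated data, where the share of false calls between Foxp3 and CD4 cells was above the threshold and some 2-fold changes were missed. CPM are TMM-scaled, except those of marker genes used to check cell types. Each fit scales to the UMIs of its own tested genes, so CPM of the splits differ in scale from those by cell type. Genes were named from the pathway lists as up to 4 per list with the largest called difference in the same direction in every library, and as the 2 genes most similar to each gene under study. The genes under study, lists and comparisons were chosen with earlier results of these data known. Alternatives were DESeq2 1.42.0, RLE factors, no count filter, no block, leaving out each library, fitting only the 2 types compared, other gates and thinning. Promoter windows are from RefSeq (GRCm38.p6), and gene positions from GENCODE on GRCm38.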

Additional observations from a re-analysis of the deposited data

Results flagged for a closer look

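A signal appeared in cells outside the comparisons. The 15 cells with an ILC2-like profile, defined by at least 4 of 9 genes of type 2 innate lymphoid cells and no Cd3d, Cd3e or Ncr1 UMI, held 60 Areg UMIs in 6 cells, at 145 to 3339 CPM across the 3 libraries, against 0.566 to 11.4 CPM in B cells. They also held 15 Il1rl1 UMIs in 8 cells, at 137 to 445 CPM against 0 to 0.894 CPM in B cells, which is 5.62% of all Il1rl1 UMIs. Libraries 1 to 3 contributed 5, 6 and 4 such cells, too few for a sum, so no test was made. Klrg1 had 18 UMIs in 6 of these cells, at 78.4, 675 and 0 CPM in libraries 1 to 3, against 106, 111 and 52.1 CPM in NK cells. CPM here are not TMM-scaled. On this scale Areg was at 562 and 647 CPM in Foxp3 cells of libraries 1 and 2, above the 529 and 145 CPM of the ILC2-like cells there. The 3339 CPM came from the 4 ILC2-like cells of library 3. Foxp3, Ikzf4, Izumo1r, Entpd1 and Nt5e had no UMI in the 15 cells.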

How the results depend on the processing

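Over all alternatives, 447 values of single genes kept their direction and their side of the threshold, 21 passed it anew, 18 fell short of it and 18 reversed, each of a result that was not called. For counts of calls, 49 stayed within 1.5 times the reported count and 27 did not. The cause of these moves was not tested. Library 3 was shallow, with 25 Foxp3 cells, in which Ikzf4, Klrg1, Il1rl1 and Areg rested on 2, 5, 1 and 13 UMIs.

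Without the replicate block, calls numbered 20 against CD4 (168 with it), 272 against CD8 (776), 684 against NK (1319), 295 against gamma delta T (630), 2441 against myeloid cells (3696), and 1 in both splits of Foxp3 cells (21 and 34). In these fits without pairing by library, Ikzf2 against CD4 was 1.49 (adjusted p = 0.471) and Ikzf4 2.14 (adjusted p = 0.0597), and in the Ikzf2 split Areg was -0.22 and Izumo1r 0.13. With only the 2 types compared, calls numbered 618 against CD4, 1198 against CD8 and 2243 against myeloid cells, Areg against CD4 was 1.60 (adjusted p = 4.00e-07) and Izumo1r 0.95 (adjusted p = 2.21e-05). With no filter on low counts, calls were 361 against CD4, 58 in the Ikzf2 and 79 in the Areg split, Areg against CD4 was 1.45 (adjusted p = 2.17e-08), Izumo1r 0.90 (adjusted p = 0.00107), and Izumo1r in the Ikzf2 split 0.10. Keeping cells with B cell or myeloid genes gave 92 calls against CD4 and Entpd1 at -0.092. Thinning to 1000 UMIs gave, against CD4, Areg 1.76 (adjusted p = 1.84e-05), Izumo1r 0.74 (adjusted p = 0.0208), Klrg1 4.03 (adjusted p = 0.0315) and Entpd1 -0.026. Needing no Cd4 UMI gave 69 and 60 calls in the Ikzf2 and Areg splits. Against CD4 it gave Klrg1 2.03 (adjusted p = 0.0273) and Nt5e -0.0046. In the Ikzf2 split it gave Izumo1r 0.11 and Nt5e 0.14. In the Areg split it gave Izumo1r 0.063 and, for Foxp3, by which the cells were chosen, -0.0050. DESeq2 gave Ikzf2 against CD4 as 1.52 (adjusted p = 0.0607), 0 calls in the Ikzf2 split (34 at an unadjusted p under 0.05), with Areg at -0.69 and Izumo1r at 0.087 there, and 8 calls in the Areg split, where 5752 genes had no adjusted p.

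Leaving out 1 library at a time gave 40 to 198 calls against CD4 (40 without library 1, 108 without library 3), 290 to 730 against CD8, 617 to 1152 against NK, 258 to 496 against gamma delta T, 2419 to 3836 against myeloid cells and 6 to 55 in the Ikzf2 split. Against CD4, Ikzf2 ranged from 1.41 to 1.54, Ikzf4 from 1.90 to 2.41, Areg from 1.21 to 1.79, Izumo1r from 0.73 to 1.05, Klrg1 from 1.47 to 2.20, Nt5e from 0.06 to 0.31 and Entpd1 from -0.36 to 0.34. Entpd1 against myeloid cells ranged from -1.25 to 0.52, and in the Ikzf2 split Areg ranged from -0.57 to 0.23 and Izumo1r from -0.16 to 0.24. Leaving out a library was not run for the Areg split, which rests on 2.

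Shares of Foxp3 cells with a UMI were, with no thinning and, where it moved them, at 500 UMIs, 70.3% and 20.6% for Ikzf2, 82.9% and 36.8% for Izumo1r, 23.4% and 4.34% for Nt5e, 5.01% and 0.743% for Il1rl1, and with no thinning 32% for Areg, 23.2% for Entpd1, 14.8% for Ikzf4 and 4.49% for Klrg1. The Foxp3 share of Foxp3 plus CD4 cells was 9.92% when gated after thinning.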

Other observations

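The genes whose level followed each of the 9 genes most closely are given as a description, with Pearson's r of log2(CPM + 1) over the 20 sums of cell type and library. The sums of 1 library share mice and depth, and sums of 1 cell type share its markers, so r carries no p. Ikzf2 was most like Cd247 (r = 0.940), the zeta chain of the T cell receptor complex, and Icos (0.939), a costimulatory receptor. Izumo1r was most like Tnfrsf4 (0.927), the costimulatory receptor OX40, and the receptor segment Trbv29 (0.926). Ikzf4 was most like Syt11 (0.894) and Bcl11b (0.880), a T cell transcription factor. Il1rl1 was most like Sdf4 (0.887) and Izumo1r (0.885).

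For Areg the closest genes were 1600014C10Rik (0.847) and Itgav (0.830), the integrin alpha V chain, and for Klrg1 they were Pglyrp1 (0.877) and Ctla2a (0.857). Nt5e was closest to Msi2 (0.921) and B3gnt2 (0.909), and Entpd1 to Eloa (0.917) and Krcc1 (0.916). Foxp3, by which 1 cell type was chosen, was closest to Dnmt1 (0.689), the maintenance DNA methyltransferase, and Faim (0.689).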
